A study of Mus musculus with 8 samples.

Results

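Myelin is the sheath of stacked membrane that oligodendrocytes wrap around axons in the central nervous system. In the mouse brain it is laid down mostly after birth and from the spinal cord and brainstem forward, so a newborn brain holds many oligodendrocyte progenitors and few myelinating cells. Compact myelin is held together at its cytoplasmic faces by myelin basic protein, while other proteins keep the inner rim, the outer surface and the tight junctions of the sheath. The genes of 9 sheath proteins were described here: Mbp, Mobp and Mal of compact myelin, Cnp and Mag of the non-compact membrane next to the axon and in the loops, Cldn11 of the tight junctions, Mog of the outer surface, and Opalin and Ermn of the oligodendrocyte membrane and its cytoskeleton. They were chosen by name, and each was found by its symbol among the 49585 genes of the count table.

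RNA-seq libraries came from the whole brains of 8 newborn female B × C F1 mice, 1 day old, from C57BL/6J (B) mothers and CAST/EiJ (C) fathers. In the F1 0 ppm group the 4 mothers drank water without added cadmium (Cd), and in the F1 50 ppm group the 4 mothers drank water with 50 ppm Cd as CdCl2, before and during pregnancy. Each pup was from a different litter, so that replicates differed in animal and mother, and none was dosed directly. The question was whether the RNA of the sheath proteins differed between brains of the 2 doses. The reads counted on genes numbered 22916434 to 30708087 in a brain. Levels are in CPM, the reads of a gene scaled to the size of the library, and 3 reads, the limit that a count of 0 allows, made 0.0980 to 0.132 CPM for counting error only. Neuron marker genes summed to 6457 to 7461 CPM in every brain, so the RNA was that of neural tissue, and among the mature oligodendrocyte markers Klk6 had no reads in any brain. Whole brains are mixtures, in which fewer cells of a type and less RNA per cell cannot be told apart.

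SOX10 and MYRF are transcription factors of the oligodendrocyte lineage that are known to switch on myelin genes. The stretches upstream of the start are shown for Mag, Cnp and Mobp, the members with a promoter entry whose unadjusted edgeR p was under 0.05, and for Mog and Ermn, whose log2 fold changes lay nearest to 0. They were taken from RefSeq (GRCm38.p6) and end before the first annotated exon of the gene. They are written 5′ to 3′ along the gene, and capitals mark ACAAAG or ACAATG (a SOX core) and CTGGCAC or CTGGTAC (a MYRF core) on either strand. The Mag stretch is chr7:30914874-30915113 on the minus strand, that of Cnp chr11:100574689-100574903 on the plus strand, that of Mobp chr9:120149492-120149706 on the plus strand, that of Mog chr17:37023399-37023648 on the minus strand and that of Ermn chr2:58052865-58053114 on the minus strand.
Mag: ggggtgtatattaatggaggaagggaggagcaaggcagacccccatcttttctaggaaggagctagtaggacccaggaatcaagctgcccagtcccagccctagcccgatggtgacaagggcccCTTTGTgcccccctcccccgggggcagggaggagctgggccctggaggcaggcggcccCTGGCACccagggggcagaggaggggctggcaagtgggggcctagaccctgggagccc
Cnp: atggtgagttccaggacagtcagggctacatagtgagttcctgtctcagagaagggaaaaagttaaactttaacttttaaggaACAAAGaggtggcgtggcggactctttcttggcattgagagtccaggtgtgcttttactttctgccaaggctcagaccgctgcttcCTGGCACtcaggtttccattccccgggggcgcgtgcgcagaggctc
Mobp: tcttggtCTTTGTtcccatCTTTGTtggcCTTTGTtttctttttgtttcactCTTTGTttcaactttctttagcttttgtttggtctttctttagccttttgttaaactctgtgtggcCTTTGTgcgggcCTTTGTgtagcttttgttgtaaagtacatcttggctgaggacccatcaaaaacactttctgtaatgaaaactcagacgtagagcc
Mog: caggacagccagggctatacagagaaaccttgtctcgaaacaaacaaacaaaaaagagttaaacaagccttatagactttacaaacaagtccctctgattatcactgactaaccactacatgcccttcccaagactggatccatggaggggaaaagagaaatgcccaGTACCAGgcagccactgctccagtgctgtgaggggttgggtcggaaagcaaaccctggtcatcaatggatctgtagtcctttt
Ermn: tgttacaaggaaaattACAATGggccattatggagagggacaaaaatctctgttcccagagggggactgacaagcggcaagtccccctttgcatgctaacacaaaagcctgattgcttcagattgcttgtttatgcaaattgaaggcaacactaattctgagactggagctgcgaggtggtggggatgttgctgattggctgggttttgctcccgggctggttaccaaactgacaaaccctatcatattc

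Positions were counted back from the RefSeq start in windows of 250 bases. Mag held a SOX core at -126 and a MYRF core at -68, and Cnp held a SOX core at -167 and a MYRF core at -81. Mobp held 6 SOX cores between -243 and -120 and no MYRF core. Mog held a MYRF core at -83 and no SOX core, and Ermn held a SOX core at -234 and no MYRF core. SOX cores and MYRF cores thus each stood in windows of both kinds of member. Of the 8 members with a promoter entry (Mbp had none), 5 held a SOX core, against 25.5% of 27025 mouse promoters of the same length, and 3 held a MYRF core, against 5.86%. The E-box CAGCTG, a bHLH core of the kind OLIG factors use, was in none of the 8 windows and in 12.8% of all. These letter matches are descriptions of the windows and not binding sites measured in these brains.

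Myelin RNA was present in all of the newborn brains at levels that differed by orders of magnitude between members. Levels between genes were compared per length, as CPM per kb of annotated exon. At 0 ppm the means ran from 9.24 CPM per kb for Cnp through 7.59 for Cldn11, 6.66 for Mbp, 1.54 for Mal, 0.726 for Ermn, 0.623 for Mag, 0.129 for Mog and 0.0140 for Mobp to 0.00657 for Opalin (n = 4). Neighbours in this order overlapped between libraries for Cnp and Cldn11, Cldn11 and Mbp, Ermn and Mag, and Mobp and Opalin, and were apart for the others. At 50 ppm the order was Cnp (13.3), Mbp (9.34), Cldn11 (8.88), Mal (1.90), Mag (1.39), Ermn (0.721), Mobp (0.127), Mog (0.120) and Opalin (0.0135), all in CPM per kb (n = 4). There Mbp overlapped Cldn11, Mal overlapped Mag, and Mobp overlapped Mog, while Mag and Ermn were apart by a narrow gap, with a lowest Mag level of 0.885 and a highest Ermn level of 0.879. The annotated exons include all transcripts of a gene, and for Mbp they also hold those of the Golli products of the locus, which counts per gene do not separate.

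**Figure D1:**
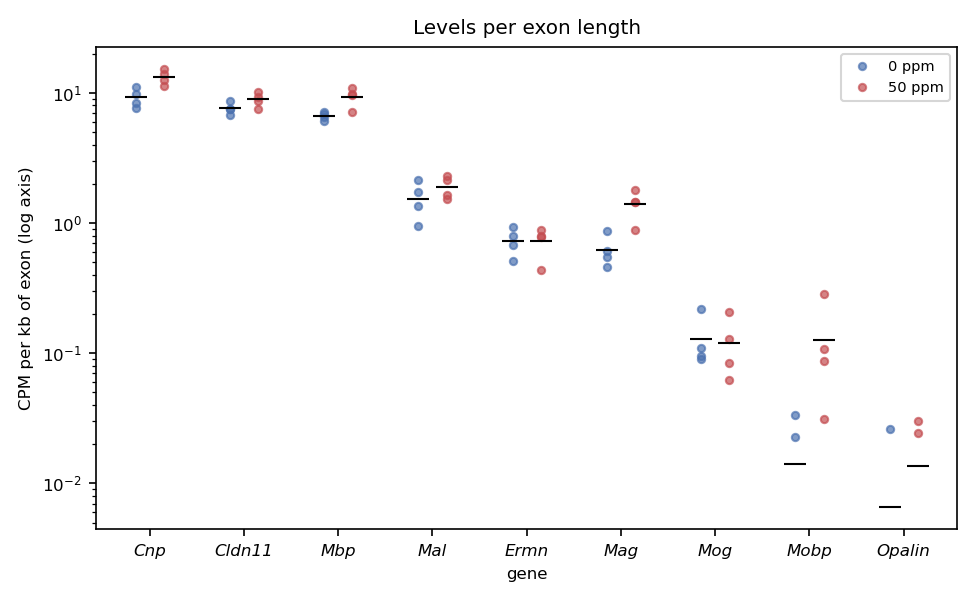
Levels of the 9 sheath protein genes per exon length, in CPM per kb on a log axis; points are brains (0 ppm blue, 50 ppm red) and short lines are group means, taken over all 4 brains. Brains at 0 reads cannot be drawn on a log axis and are left out, which are 2 for Mobp at 0 ppm and 5 for Opalin.

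Mbp encodes the protein that joins the cytoplasmic faces of the compact sheath (ENSMUSG00000041607, chr18:82475146-82585637, plus strand, GRCm38). Its level was 55.6, 51.5, 60.2 and 58.2 CPM in the 0 ppm brains and 80.8, 82.4, 60.7 and 92.6 CPM in the 50 ppm brains. All of the exposed brains lay above all of the controls, but 50 ppm replicate 3 did so by less than 1 CPM over 0 ppm replicate 3. Group means of 56.4 ± 3.78 CPM and 79.1 ± 13.4 CPM (SD, n = 4) gave a log2 fold change of 0.49 with an SE of 0.10. In edgeR's quasi-likelihood test the unadjusted p was 1.63e-04 and the p adjusted over all 23113 genes was 0.289, so that Mbp did not pass the threshold of 0.05. An exact two-sided permutation test of its log2 CPM gave p = 0.0286, the smallest that the 70 labellings of 4 against 4 allow.

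Mag encodes the adhesion protein of the innermost membrane that faces the axon (ENSMUSG00000036634, chr7:30899176-30914873, minus strand). It had the largest relative difference among the members with at least 10 reads in every brain. Reads numbered 55, 60, 109 and 64 at 0 ppm and 168, 169, 101 and 164 at 50 ppm, or 1.88, 2.23, 3.56 and 2.48 CPM against 5.89, 5.93, 3.60 and 7.23 CPM. The groups did not overlap, and the gap between the highest control, replicate 3, and the lowest exposed brain, also numbered 3, was again narrow. The means of 2.54 ± 0.725 and 5.67 ± 1.51 CPM (SD, n = 4) made a log2 fold change of 1.15 with an SE of 0.22, an unadjusted p of 6.58e-05 and an adjusted p of 0.169 in edgeR. The exact permutation test gave p = 0.0286. Mag ranked 9 by p among all genes tested, Mbp 13 and Cnp 16.

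Cnp encodes an enzyme of the non-compact cytoplasm that is already made by immature oligodendrocytes (ENSMUSG00000006782, chr11:100574904-100591729, plus strand). Its level was 30.6, 27.6, 40.5 and 35.9 CPM in the controls and 45.7, 55.5, 41.2 and 50.8 CPM in the exposed brains. Here too the groups were apart, with the replicates numbered 3 at the edge of each. Cnp averaged 33.6 ± 5.71 and 48.3 ± 6.17 CPM (SD, n = 4), its log2 fold change was 0.52 with an SE of 0.11, and edgeR gave an unadjusted p of 2.37e-04 and an adjusted p of 0.299. The exact permutation p was 0.0286. Of its annotated exon bases, 4.23% overlap Dnajc7 on the opposite strand, and the strand setting of the count is not given in the sources used here.

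Mobp, a small basic protein of compact myelin that appears late in development (ENSMUSG00000032517, chr9:120149707-120181484, plus strand), was barely detected in controls. It had 0, 0, 7 and 4 reads at 0 ppm and 17, 21, 6 and 44 reads at 50 ppm. The groups overlapped through 0 ppm replicate 3 with 0.229 CPM and 50 ppm replicate 3 with 0.214 CPM, while 50 ppm replicate 4 alone reached 1.94 CPM. The log2 fold change of 3.07 had an SE of 0.73, with an unadjusted p of 5.59e-04 and an adjusted p of 0.391 in edgeR, and the exact permutation p was 0.0571. With 2 control brains at 0 reads the size of this fold depends on few reads. Without 50 ppm replicate 4 it was 2.36 (SE 0.76), with an adjusted p of 1.00 and an unadjusted p of 0.00800.

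Cldn11, the claudin of the myelin tight junctions that meningeal cells also make, and Mal, a lipid-binding membrane protein, had higher means at 50 ppm, but neither difference passed the test. Cldn11 (ENSMUSG00000037625, chr3:31149920-31164324) was at 14.1, 12.5, 13.9 and 16.2 CPM in the controls against 17.2, 14.1, 16.1 and 19.0 CPM in the exposed brains. The groups overlapped, with a log2 fold change of 0.23, an SE of 0.12 and an unadjusted edgeR p of 0.0692. Meninges genes summed to 788 to 884 CPM in controls and 964 to 1145 CPM in exposed brains, and 5 of the 12 had an unadjusted p under 0.05, all higher. Igf2 (means of 362.3 and 406.2 CPM at 0 and 50 ppm) and Ptgds (242.7 and 344.7 CPM) made most of that sum. The study also marks Ptgds as part of the myelin transcriptome. The median log2 fold change of the 12 meninges genes was 0.14. The part of meningeal tissue in the Cldn11 level was not tested. Mal (ENSMUSG00000027375, chr2:127633226-127656695) had 2.63, 5.92, 4.80 and 3.76 CPM against 4.56, 4.25, 5.96 and 6.40 CPM, with 0 ppm replicate 1 the lowest of all. Its log2 fold change was 0.30 (SE 0.21), with an unadjusted edgeR p of 0.171.

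The remaining members showed no difference past their spread. Ermn, which encodes the actin-associated protein ermin of maturing oligodendrocytes (ENSMUSG00000026830, chr2:58045113-58052864), had 99, 77, 75 and 48 reads at 0 ppm against 45, 91, 81 and 64 reads at 50 ppm. Its means of 2.64 ± 0.644 and 2.62 ± 0.714 CPM (SD, n = 4) were nearly equal, with a log2 fold change of -0.01 (SE 0.23) and an unadjusted edgeR p of 0.954. At 1 SE on either side this allowed a fold of 0.843 to 1.16. Galnt5 overlaps 6.52% of the Ermn exon bases on the opposite strand.

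Mog, a surface protein of late oligodendrocytes and a target of autoimmune demyelination (ENSMUSG00000076439, chr17:37010743-37023398), had 11, 5, 5 and 4 reads at 0 ppm and 3, 10, 4 and 5 reads at 50 ppm. The log2 fold change was -0.11 with an SE of 0.53, so a difference of this order was not detectable at this depth. Opalin, a membrane glycoprotein of myelinating oligodendrocytes (ENSMUSG00000050121, chr19:41061710-41077113), had 2 reads in 0 ppm replicate 4, in 50 ppm replicate 3 and in 50 ppm replicate 4, and 0 reads in the other 5 brains. Both groups were under the limit of 3 reads and no fold was given. For Mog, Opalin, Cldn11, Mal and Ermn the adjusted p was 0.999 in edgeR.

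**Figure D2:**
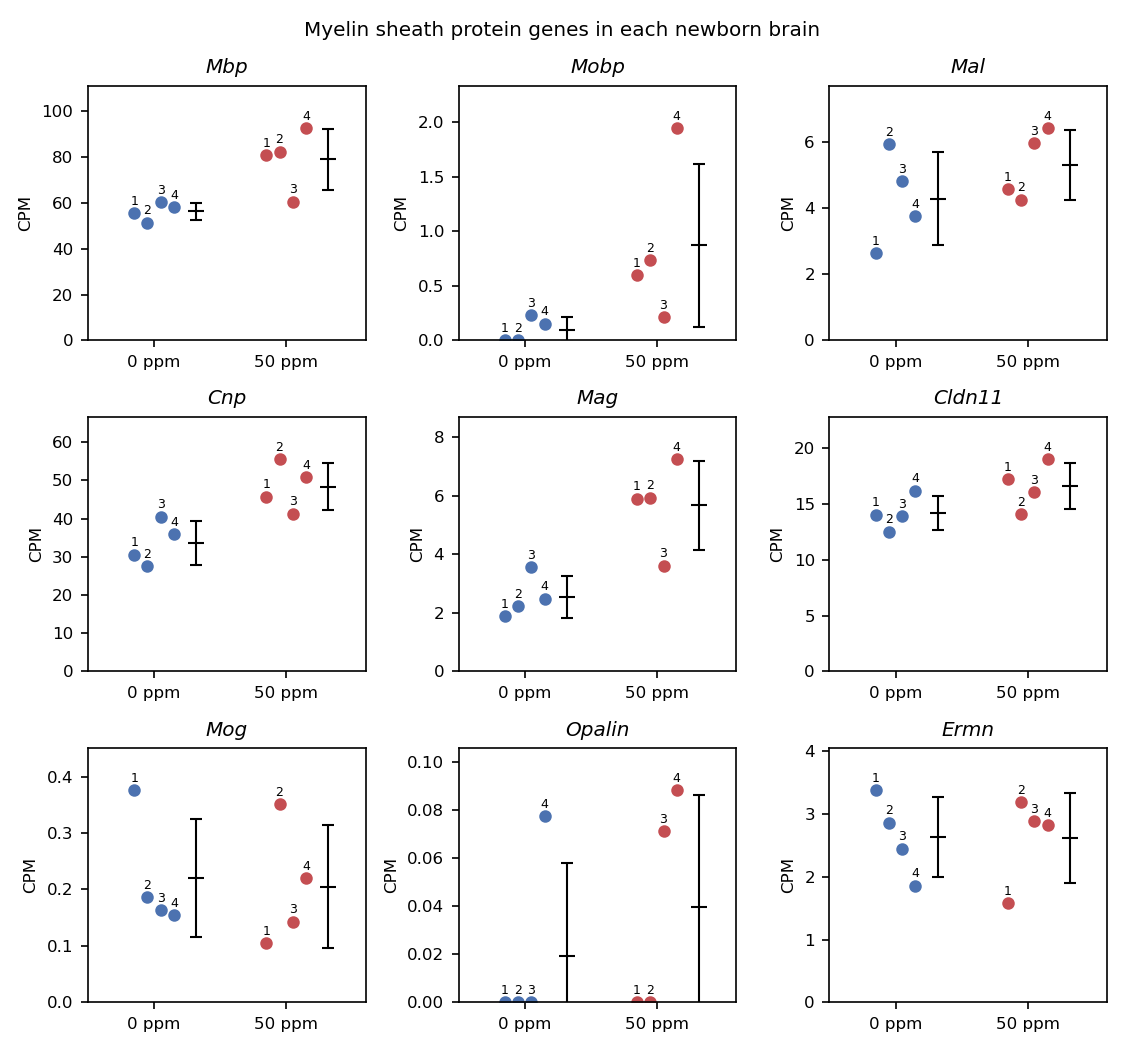
CPM of the 9 sheath protein genes in each brain, with the replicate number over each point (0 ppm blue, 50 ppm red); bars show the mean and SD of the 4 brains and are drawn down to 0 at most. For Mbp, Cnp and Mag all 4 exposed brains lie above the controls, with the replicates numbered 3 close to each other, while the groups overlap for the other 6 genes.

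Counted together, 0 of the 9 members passed the adjusted threshold in edgeR, against 0.0173% of all genes tested (4 of 23113). An unadjusted p under 0.05 was reached by 4 members, Mbp, Mag, Cnp and Mobp, all higher at 50 ppm, where 2.31% of all genes were higher and 1.44% lower by that rule. All 4 exposed brains lay above all 4 controls for 3 members, Mbp, Mag and Cnp, and for 1.19% of all genes. The median log2 fold change was 0.49 over the 9 members and -0.0032 over all genes tested. The 9 include Opalin, which had 6 reads in all and lay above this median in the fit, so without it the median would be lower. DESeq2 gave an adjusted p under 0.05 to 0.0779% of genes and to 3 members, namely Mag (0.00256), Mbp (0.0360) and Cnp (0.0455). The study's own list of changed genes, chosen on these same brains, holds Mag, Mbp and Cnp, and their direction is not independent of it. No member was lower at 50 ppm at an unadjusted p under 0.05.

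Whether members were called depended on single libraries, as well as on the test and the filter. Without 0 ppm replicate 3, edgeR's adjusted p was 0.0196 for Mag and 0.0296 for Cnp, with log2 fold changes of 1.36 and 0.62. Without 50 ppm replicate 3, it was 0.00922 for Mbp and 0.0257 for Mag, with log2 fold changes of 0.60 and 1.32. These were the libraries that lay closest to the other dose, and no member was called when any other single library was left out. For Mag, Mbp and Cnp the sign stayed positive and the unadjusted p stayed under 0.05 in all of the 17 other settings tried. In the alignment to the CAST/EiJ genome, in which Mbp, Mag and Cnp could be identified, log2 fold changes were 0.51, 1.17 and 0.54, and edgeR's adjusted p was 0.240, 0.211 and 0.277.

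Members did not all order the brains alike. Over the 8 members with enough reads to rank, which left out Opalin, 50 ppm replicate 4 was the highest of all brains for 5 and 50 ppm replicate 3 was the lowest of its dose for 4. Among controls, 0 ppm replicate 3 was the highest for 4 members. Summed over the 9 members, controls had 108.6, 102.8, 125.8 and 118.7 CPM while exposed brains had 156.5, 166.4, 130.8 and 181.1 CPM. Mbp made 46.4% to 51.6% of the sum in a brain, and Mbp with Cnp made 76.9% to 82.8%, so the sum shows mainly these 2 genes.

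Ratios between members within a brain do not depend on library size. The ratio of Mag reads to Mbp reads was 0.0337, 0.0434, 0.0591 and 0.0426 at 0 ppm and 0.0729, 0.0720, 0.0594 and 0.0781 at 50 ppm. The exposed brains were all above the controls in this ratio, with the replicates numbered 3 again side by side. Cnp to Mbp was 0.594 ± 0.0630 and 0.617 ± 0.0694 (SD, n = 4), which overlapped. The Ermn to Mbp ratio of 0.0473 ± 0.0133 and 0.0341 ± 0.0120 (SD, n = 4) also overlapped. Mag to Cnp, at 0.0748 ± 0.0119 and 0.116 ± 0.0242 (SD, n = 4), overlapped through 0 ppm replicate 3 (0.0880) and 50 ppm replicate 3 (0.0874). Of these ratios, that of Mag to Mbp was the one whose groups did not overlap.

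Transcription factors and stage markers of the lineage were read from the same fit. Sox10, which marks the whole oligodendrocyte lineage, had 11.9 ± 0.617 CPM in controls against 12.9 ± 2.44 CPM in exposed brains (SD, n = 4), and its log2 fold change of 0.12 (SE 0.13) did not pass. Olig2, shared by progenitors and oligodendrocytes, had 36.5 ± 5.26 and 32.9 ± 3.48 CPM. The ratio of Mag to Olig2 reads was 0.0525, 0.0508, 0.113 and 0.0709 at 0 ppm and 0.171, 0.186, 0.126 and 0.197 at 50 ppm, without overlap. Mag to Sox10, at 0.215 ± 0.0730 and 0.436 ± 0.0780 (SD, n = 4), did not overlap either. Mbp to Sox10, at 4.75 ± 0.559 and 6.17 ± 0.720 (SD, n = 4), overlapped only through 0 ppm replicate 3 (5.39) and 50 ppm replicate 1 (5.31). Cnp to Sox10, at 2.84 ± 0.632 and 3.81 ± 0.573 (SD, n = 4), overlapped more. There 0 ppm replicates 3 (3.62) and 4 (3.06) lay above 50 ppm replicate 1 (3.00). Of the 12 lineage transcription factors, 3 had an unadjusted p under 0.05, all higher, and none passed the adjusted threshold. They were Zfp488 (log2 fold change 0.70), Myrf (0.61), the factor that switches on myelin genes, and Nkx6-2 (0.74).

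Stage by stage, the marker lists differed in their counts. None of the 10 progenitor genes had an unadjusted p under 0.05 and their median log2 fold change was 0.05, with Pdgfra, the growth factor receptor of progenitors, at 121.4 ± 7.45 and 128.9 ± 8.28 CPM (SD, n = 4). Of 11 genes of newly formed oligodendrocytes, 3 were higher at an unadjusted p under 0.05 (Bcas1, Enpp6 and Itpr2), none was lower, and the median was 0.22. Bcas1 alone passed the adjusted threshold in edgeR (9.96 ± 2.18 against 19.6 ± 3.24 CPM, log2 fold change 0.97, SE 0.15, adjusted p = 0.0374). This call was lost with the brainstem and spinal cord score in the model, in limma-voom, with the filter of 10 counts, without 0 ppm replicates 1 and 2 together, and without any one of 0 ppm replicates 1, 2 and 4 and 50 ppm replicates 1, 2 and 4. Of 16 mature oligodendrocyte genes tested, which include Mobp, Mog, Opalin and Ermn, 6 were higher and none lower at an unadjusted p under 0.05, with a median of 0.20. Trf, a gene of that list, had next to no reads in any brain, and 63.5% of its exon bases overlap an annotated gene on the same strand, which counting by gene can leave out.

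Other myelin proteins were compared as a list of 20, of which 19 were in the table and tested. Their median log2 fold change was 0.03; 6 were higher and none lower at an unadjusted p under 0.05, and none passed the adjusted threshold in edgeR. Among those with the smallest p were Gjc3, an oligodendrocyte and satellite glia connexin (log2 fold change 0.91, unadjusted p 0.00511), Car2, a carbonic anhydrase of oligodendrocytes (0.29, 0.0111), and Sirt2, a deacetylase of the sheath (0.17, 0.0484). The axonal partner list, proteins of the axon surface at and beside the nodes, had 2 of 10 higher at an unadjusted p under 0.05 and a median of 0.07.

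Genes of Schwann cells, the myelinating cells of peripheral nerve, were checked because Mbp, Mag, Cnp and Mal are made there too. They summed to between 76.4 and 95.8 CPM in controls and between 79.8 and 104.0 CPM in exposed brains. Most of that sum came from Drp2 (means of 61.6 and 61.1 CPM at 0 and 50 ppm) and Pmp22 (17.2 and 16.9 CPM). The sum therefore shows mainly these genes and hardly those of low level. Pmp2 had no reads, though 86.9% of its exon bases overlap an annotated gene on the same strand, as for Trf. Of the 9 genes tested, 2 were higher at an unadjusted p under 0.05 and none lower, among them Foxd3, a factor of the neural crest (0.278 and 0.606 CPM, log2 fold change 1.09, SE 0.38). The part of peripheral nerve in the members' levels was not tested.

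Genes of the caudal brain were measured beside the members. The mean log2 CPM of 17 tested genes of brainstem and spinal cord, used as a score per brain, was 0.28, 1.29, 2.21 and 1.93 in the 0 ppm brains. In the 50 ppm brains it was 2.48 in replicate 2, 2.15 in replicate 3 and 2.45 in replicate 4, and replicate 1 was the highest of all. The doses overlapped through the replicates numbered 3. Of the 17 genes 9 were higher and none lower at an unadjusted p under 0.05, 3 had negative fold changes, and 0 passed the adjusted threshold in edgeR. The 23 Hox genes listed, which are expressed in hindbrain and spinal cord, summed to 0.341, 1.26, 19.6 and 34.0 CPM in controls against 133.9, 48.0, 30.8 and 42.4 CPM in exposed brains, and Hoxb6, Hoxb7 and Hoxb8 passed the adjusted threshold in edgeR (adjusted p 0.0401, 0.00298 and 4.65e-06). With the score in the model only Hoxb8 of these was still called. The Hoxb6 call was also lost in DESeq2, in the robust fit, in limma-voom and with the filter of 10 counts. It was lost too without 0 ppm replicate 1 or 2, without both, and without 50 ppm replicate 1 or 4. The Hoxb7 call was lost in limma-voom. Of 17 forebrain genes 9 were lower and none higher at an unadjusted p under 0.05, with a median log2 fold change of -0.24, and 0 passed the adjusted threshold. Replicate 3 of either dose, whose Mbp, Mag and Cnp levels were nearly the same, had scores of 2.21 and 2.15. Levels in the other brains did not all follow the score. Among controls, Mag rose in the order of the scores. Mbp was 55.6 and 51.5 CPM in 0 ppm replicates 1 and 2, against their scores, and Cnp was 30.6 and 27.6 CPM. In 50 ppm replicate 1, highest in score, Mbp was 80.8 and Mag 5.89 CPM. Both were higher in 50 ppm replicate 4 (92.6 and 7.23 CPM). Astrocyte genes ran from 930.0 to 1184 CPM in sum in controls and from 1180 to 1421 CPM in exposed brains, and 5 of 9 were higher at an unadjusted p under 0.05.

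**Figure D3:**
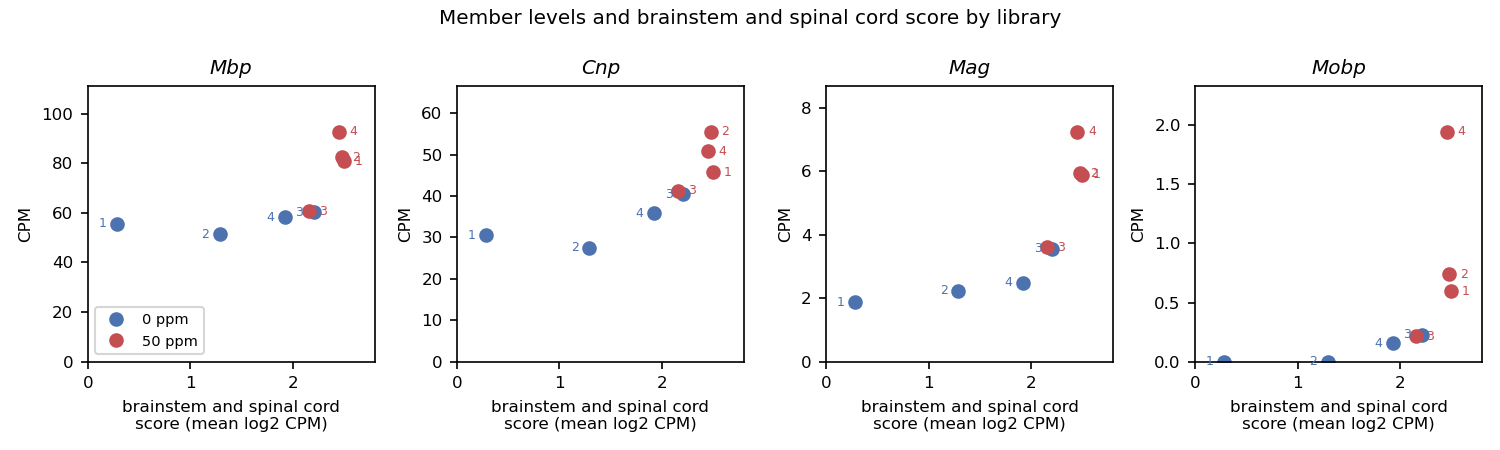
CPM of Mbp, Cnp, Mag and Mobp against the brainstem and spinal cord score (mean log2 CPM of 17 genes) for each brain, with replicate numbers (0 ppm blue, 50 ppm red). The replicates numbered 3 lie on each other, and 0 ppm replicates 1 and 2 have the lowest scores, 0.28 and 1.29.

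With this score as a second term in edgeR, the log2 fold change between doses was 0.38 (SE 0.13, unadjusted p 0.00955) for Mbp, 0.70 (SE 0.26, unadjusted p 0.0152) for Mag and 0.31 (SE 0.13, unadjusted p 0.0305) for Cnp, against 0.49, 1.15 and 0.52 without it. That of Mobp was 0.53 (SE 1.34, unadjusted p 0.697), against 3.07. The adjusted p of the members was then 0.846 to 1.00. Without 0 ppm replicates 1 and 2, the brains of lowest score, the log2 fold changes were 0.41 (SE 0.12) for Mbp, 0.89 (SE 0.24) for Mag, 0.33 (SE 0.11) for Cnp and 2.09 (SE 0.66) for Mobp. Dose and score overlap in these brains, in that 3 of the 4 exposed brains had scores above every control, so their shares in the difference cannot be fully told apart.

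**Figure D4:**
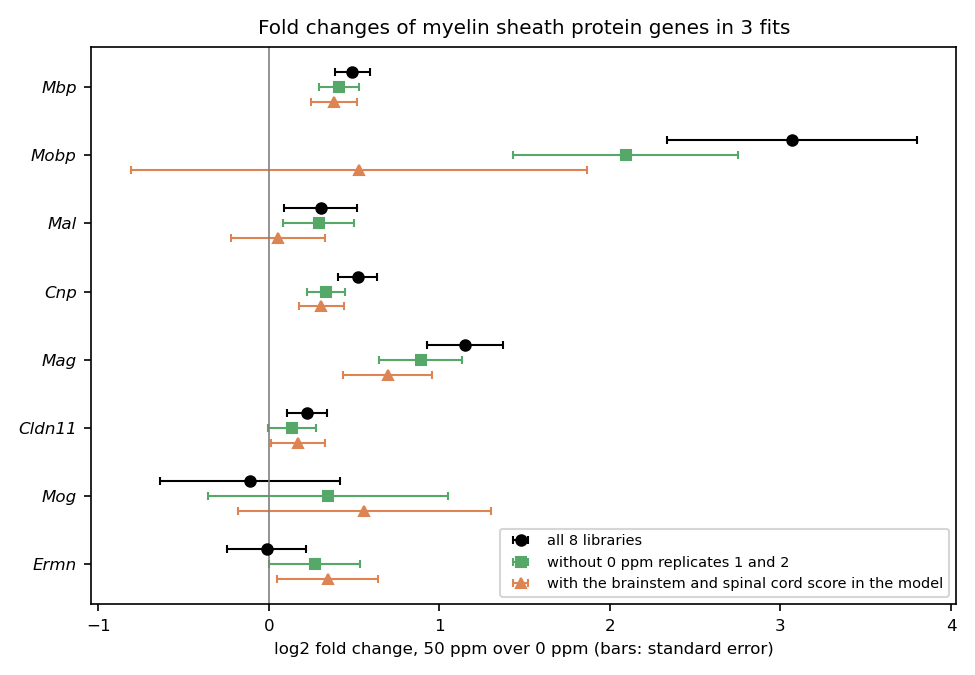
Log2 fold changes of 8 members (50 ppm over 0 ppm, Opalin left out) with their SE in 3 edgeR fits: all 8 brains (black), without 0 ppm replicates 1 and 2 (green) and with the brainstem and spinal cord score in the model (orange). Mbp, Cnp and Mag stay above 0 by more than 1 SE in each fit, whereas Mobp goes from 3.07 to 0.53.

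Genes other than the members were ranked by how closely they followed the members across the 8 brains. The profile was the mean of the z-scored log2 CPM of the 6 members with at least 10 reads in at least 4 brains, and 16526 genes were ranked by Pearson's r. The members themselves correlated with it at 0.948 (Mag), 0.915 (Mbp), 0.892 (Cnp), 0.675 (Cldn11), 0.566 (Mal) and 0.031 (Ermn), each being part of it. The nearest 10 other genes were Serpini1 (r = 0.971), Ednrb (0.961), Sparcl1 (0.948), Glt1d1 (0.944), Gng12 (0.941), Slc4a4 (0.940), Kcnj16 (0.940), Colca2 (0.938), Il33 (0.935) and Atp1b2 (0.927). With the dose means removed, r was 0.935 for Serpini1, 0.906 for Ednrb and 0.714 for Il33, the highest 2 and the lowest of the 10. Of the lineage genes, Enpp6 ranked 61 (r = 0.869), Bcas1 69 (0.863) and Myrf 139 (0.822), while Sox10 ranked 4465 (0.254). Their r with the dose means removed was 0.528, 0.386, 0.554 and 0.0802, in that order. These values describe 8 libraries that share the difference between doses, and the genes of 1 library share its tissue and depth.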

How the data were processed

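Unnormalized counts of reads on genes were deposited by the authors for poly(A) RNA of 8 newborn whole brains, in a table for the C57BL/6J genome (GRCm38) and another for the CAST/EiJ genome. The authors had trimmed the first 10 bases of each single-end read from a strand-specific library, aligned the reads with STAR and counted them with htseq-count; versions and the strand setting are not given in the sources used here. Reads that could belong to overlapping genes may be lost from such counts.

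A gene at 0 in more than 2/3 of the libraries was not tested, and all 9 members stayed among the 23113 genes tested. Counts were normalized by TMM and tested with the quasi-likelihood test of edgeR 4.0.16 (R 4.3.3) with treatment as the only term, adjusted by Benjamini-Hochberg over all genes. The SE is the absolute log2 fold change over the square root of F. CPM use TMM library sizes. Exact permutation tests used log2 CPM (prior count 2). Alternatives were DESeq2 1.42.0, its size factors, 2 filters, a robust fit, limma-voom (limma 3.58.1), the brainstem and spinal cord score, the CAST/EiJ alignment, each library left out, and 0 ppm replicates 1 and 2 left out, which was chosen after seeing the data. Within-dose pairs of libraries differed by more than sampling noise (chi-square per degree of freedom 8.67 to 21.1 over 12 pairs).

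Of 49585 identifiers, 49326 were named from the gene table, positions and exon lengths came from GENCODE M21, and CAST/EiJ identifiers were named for 3 members only. The members and the 15 gene lists, of which 187 of 190 symbols were in the table, were chosen with earlier results of these data known. Some single genes are not reported here. Named genes are the members, genes among the 5 smallest p of the other myelin list, list genes past the adjusted threshold, and the 10 nearest the member profile; other list genes were named after their values were seen. The code was tested on simulated data.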

Additional observations from a re-analysis of the deposited data

Results flagged for a closer look

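Mog and Opalin had 1 control brain far from the other 3, by Dixon's ratio of the gap to the group's range, which chance exceeds in about 1 in 20 groups. For Mog the ratio was 0.859, with 11 reads in 0 ppm replicate 1 and 4 or 5 reads in the other controls. For Opalin it was 1.00, with 2 reads in 0 ppm replicate 4 and 0 in the others, a pattern that always gives 1.00. Both rest on few reads.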

How the results depend on the processing

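Genes with an adjusted p under 0.05 numbered 4 in edgeR, 18 in DESeq2, 52 without a filter, 2 when 4 or more libraries had to hold 10 counts or more, 1 in limma-voom, 2 with the score of caudal genes (brainstem and spinal cord) added to the model, 2 in the CAST/EiJ alignment and 7 without 0 ppm replicates 1 and 2, and 2 to 20 when single libraries were left out. Members past that threshold numbered 0 in edgeR (4 at an unadjusted p under 0.05), 3 in DESeq2, 4 without a filter (Mbp, Mag, Cnp and Mobp) and 0 to 2 when single libraries were left out. The cause was not tested. The count of members at an unadjusted p under 0.05 stayed within 1.5 times of 4 in every setting. Log2 fold changes ranged over the settings from 0.38 to 0.60 for Mbp, 0.70 to 1.36 for Mag, 0.31 to 0.62 for Cnp, 0.53 to 3.99 for Mobp, 0.13 to 0.30 for Cldn11 and 0.05 to 0.50 for Mal, without a change of sign. The signs of Mog and Ermn, both with log2 fold changes near 0, held in 10 of 15 and 10 of 16 settings. For Mog the value was 0.56 with the score in the model and 0.35 without 0 ppm replicates 1 and 2, and it was -0.52 to 0.28 when single libraries were left out. For Ermn these values were 0.34, 0.27 and -0.15 to 0.17, with 0.08 in limma-voom. Mog, Mobp and Opalin are limited by depth. No paired analysis was possible because the replicate numbers were given in accession order and do not tie brains of the 2 doses together.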
